A study of Mus musculus with 13 samples.

Results

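Cthrc1, Lrrc15, Adam12, Fap, Inhba, Runx1, Runx2, Ccdc80, C1qtnf3 and C1qtnf6 are 10 genes linked to activated fibroblasts, the matrix-producing cells of scarred tissue. They were taken by symbol from tables of 20270 mouse genes. All 10 were found, and all 10 were among the 15315 genes with enough counts to be tested. RNA came from the lower right lung lobe of 13 mice in 3 groups. Control mice (n = 4) were wildtype and received the saline vehicle. WT bleomycin mice (n = 5) were wildtype and were examined 14 days after 1 oropharyngeal dose of bleomycin, 1 U per kg. CB1R KO bleomycin mice (n = 4) received the same dose, were examined on the same day, and carried a deletion of Cnr1, the gene of the cannabinoid receptor CB1R, in all cells (Cnr1-/-, on the C57BL/6J background). The wildtype mice were male C57BL/6J, 13 weeks old, and no sex or age is given for the CB1R KO mice. Untreated CB1R KO mice were not analysed here, so a difference between the genotypes before bleomycin cannot be told apart from one in the response to it. Each library is 1 mouse. Whole lobes were sequenced, so more cells of a type and more RNA per cell cannot be told apart.

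Bleomycin injures the alveoli, and the repair that follows fills the mouse lung with collagen. In scarred lung, a subset of fibroblasts leaves its resting state, spreads, contracts and deposits matrix, and Cthrc1, Lrrc15, Adam12 and Fap are widely used to mark such cells. Cthrc1 and Ccdc80 encode secreted matrix proteins. Lrrc15, Adam12 and Fap sit on the cell surface, Adam12 as a metalloprotease and Fap as a prolyl peptidase. Inhba encodes the subunit of activin A, a ligand of the TGF-β superfamily that follistatin binds and neutralises. Runx1 and Runx2 are DNA-binding factors that work with the partner Cbfb, Runx2 as a master factor of bone cells and Runx1 also as a factor of blood cells. C1qtnf3 and C1qtnf6 are secreted relatives of adiponectin with a collagen-like stretch and a C1q domain.

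Estimated counts summed to 14615904 to 16662580 in 12 of the 13 libraries and to 53463884 in CB1R KO replicate 11, 3.33 times the median of the others. Cnr1, the targeted gene, was counted in every library. Its mean was 4.04 CPM (counts scaled to the library total) in libraries labelled CB1R KO and 5.77 CPM in WT bleomycin, a log2 fold change of -0.53 that did not pass the test (standard error 0.28, edgeR adjusted p = 0.367). Which part of Cnr1 the reads cover is not given in the sources used here, so its counts do not check the genotype, and directions rest on the labels. None of the 10 genes shared exon bases with another protein-coding gene in GENCODE M21.

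**Figure D1:**
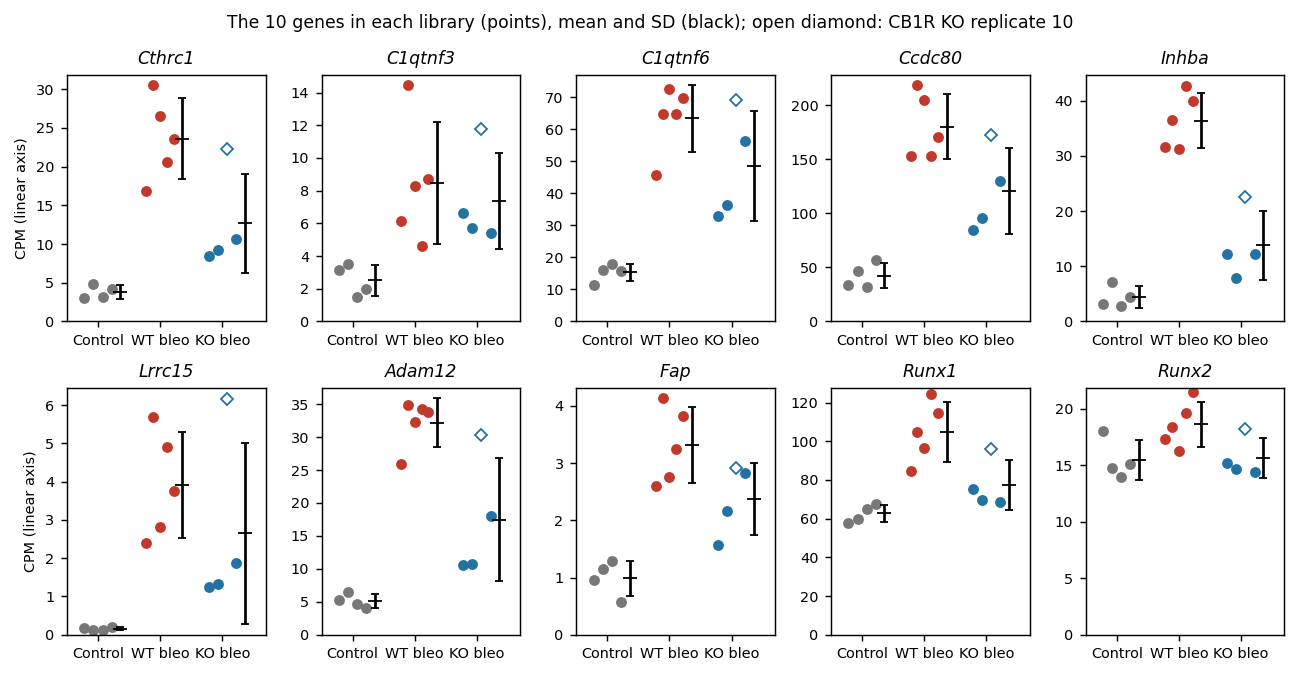
CPM of each gene (linear axis from 0) in the 4 control, 5 WT bleomycin and 4 CB1R KO bleomycin libraries. Points are libraries, black marks the mean and SD of a group, and the open diamond is CB1R KO replicate 10, the highest CB1R KO library for all 10 genes. For all but Runx2, every bleomycin library lies above every control library.

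Most of these genes were several-fold higher in wildtype lungs 14 days after bleomycin. Compared with control, 9 of the 10 were higher in WT bleomycin lungs, where 25.0% of all genes tested were higher. In these 9 the WT bleomycin libraries all lay above the controls, which held for 21.5% of all genes. The CB1R KO bleomycin libraries also all lay above the controls in the same 9 (17.7% of all genes), and in 14.7% of all genes both bleomycin groups did. The largest rises were those of Lrrc15, Inhba, Adam12 and Cthrc1. Runx2 was the member that did not pass the test. The median log2 fold change of the 10 genes was 2.07, against -0.01 over all genes tested. A gene was called at an adjusted p below 0.05 in the quasi-likelihood test of edgeR, with Benjamini-Hochberg adjustment over all genes tested.

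Between CB1R KO and WT bleomycin lungs, Inhba was the 1 gene of the 10 that was lower at the threshold, at a background of 0.62% of all genes. At an unadjusted p below 0.05, 6 of the 10 were lower, against 9.08% of all genes. All 10 fitted changes were below 0, as were 49.9% over all genes. The median log2 fold change of the 10 was -0.52, against 0.00 over all genes tested. Groups did not overlap for Inhba alone, and a lower CB1R KO group without overlap was seen in 3.1% of all genes. Compared with control, 8 of the 10 were higher in CB1R KO bleomycin lungs, where 19.0% of all genes were higher, with a median of 1.59 against -0.01 over all genes tested. Runx1 and Runx2 did not pass that test. The 3 comparisons share libraries pairwise, so their values for a gene are given side by side and are not independent.

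**Figure D2:**
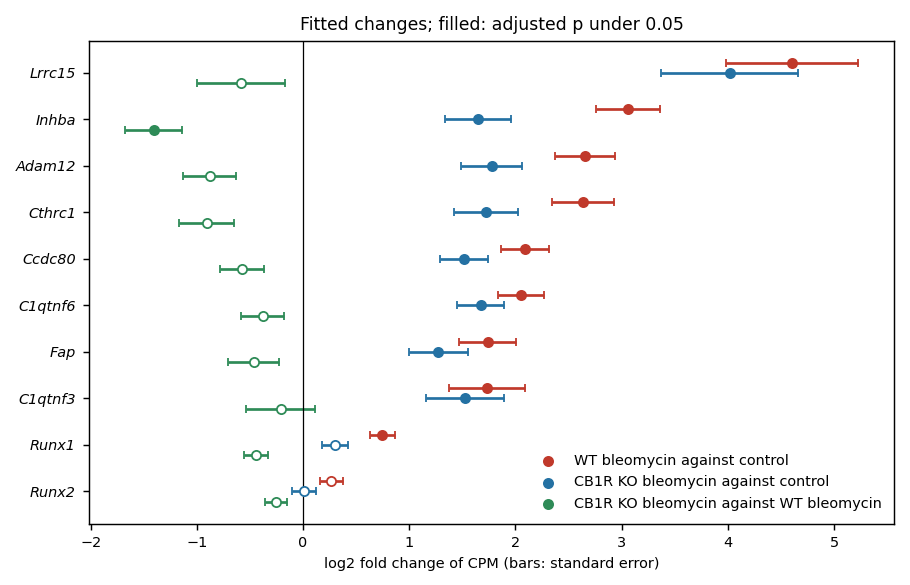
Fitted log2 fold change of CPM (horizontal axis) for each gene in 3 comparisons, with the standard error as bars. Filled points have an adjusted p below 0.05, and open points do not. Against control, WT and CB1R KO bleomycin lungs lie to the right of 0 for most genes. In CB1R KO against WT bleomycin all 10 points lie to the left of 0, and only the point of Inhba is filled.

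Levels can be compared between genes as TPM, transcript abundances that are scaled for transcript length. In WT bleomycin lungs the order of median TPM was Ccdc80 (68.0), C1qtnf6 (43.2), Cthrc1 (38.1), Runx1 (33.8), Inhba (11.6), Runx2 (7.18), Adam12 (6.30), C1qtnf3 (5.58), Fap (1.91) and Lrrc15 (1.04). Library ranges of neighbours in that order overlapped, except between Ccdc80 and C1qtnf6, Runx1 and Inhba, and C1qtnf3 and Fap. In control lungs Runx1 was the most abundant of the 10 by median TPM (18.5), its range overlapping that of Ccdc80 (16.1). C1qtnf6 (10.8), Cthrc1 (6.50) and Runx2 (4.93) followed, and the medians of C1qtnf3 (1.69), Inhba (0.966), Adam12 (0.943) and Fap (0.629) were lower. Lrrc15 was the lowest in control lungs, at 0.0425 TPM, and its range lay below that of Fap. The order in CB1R KO bleomycin lungs ran from Ccdc80 (46.6) over C1qtnf6 (31.7), Runx1 (23.8) and Cthrc1 (16.4) to Fap (1.43) and Lrrc15 (0.457). There, ranges of neighbours were apart only between Cthrc1 and Runx2 (5.83) and between Adam12 (2.87) and Fap. Ordered by CPM, which ignores length, many ranks differed, and in WT bleomycin lungs Lrrc15 stood above Fap.

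**Figure D3:**
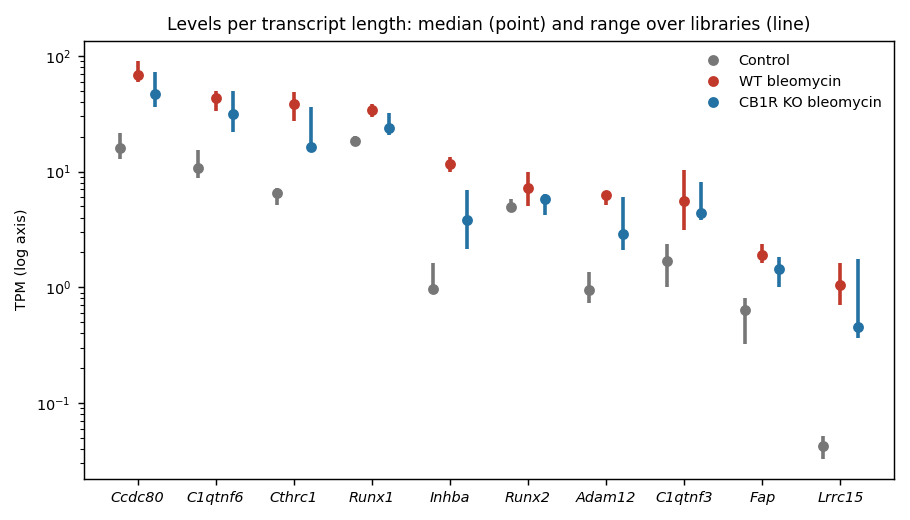
TPM of each gene (log axis) in control, WT bleomycin and CB1R KO bleomycin lungs, ordered by the median of WT bleomycin. Points are medians and lines the range over libraries. Ccdc80 is highest and Lrrc15 lowest in both bleomycin groups, and Lrrc15 in control lungs lies far below all other values.

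Cthrc1 and Ccdc80, the secreted matrix genes, rose several-fold with bleomycin. Libraries are given below in the order 3, 21, 24 and 26 for control, 4, 2, 5, 4-B2 and 7 for WT bleomycin, and 8, 9, 10 and 11 for CB1R KO bleomycin. Cthrc1 stood at 3.03, 4.81, 3.14 and 4.25 CPM in control lungs, at 16.9, 30.5, 26.6, 20.6 and 23.6 CPM in WT bleomycin lungs, and at 8.50, 9.23, 22.2 and 10.7 CPM in CB1R KO bleomycin lungs. The WT bleomycin libraries were all above the controls, and 3 of the 4 CB1R KO libraries lay between the other groups while replicate 10 lay inside the WT bleomycin range. Cthrc1 was 6.20-fold higher in WT bleomycin than in control (log2 fold change 2.63, standard error 0.29, edgeR adjusted p = 6.1e-06) and 3.31-fold higher in CB1R KO bleomycin than in control (1.73, standard error 0.30, edgeR adjusted p = 0.000574). Between CB1R KO and WT bleomycin its log2 fold change was -0.91 (standard error 0.26), with an unadjusted p of 0.00335 and an edgeR adjusted p of 0.102. With DESeq2, the tool the study used, the adjusted p of this difference was 0.0197.

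Ccdc80 was the most abundant member in bleomycin-treated lungs. It had 33.6, 46.8, 32.1 and 56.9 CPM in control, 153, 219, 205, 153 and 171 CPM in WT bleomycin and 84.2, 95.8, 173 and 129 CPM in CB1R KO bleomycin libraries. Again no bleomycin library overlapped the controls, and CB1R KO replicate 10 was inside the WT bleomycin range. The log2 fold change was 2.09 in WT bleomycin against control (standard error 0.22, edgeR adjusted p = 4.07e-06) and 1.51 in CB1R KO bleomycin against control (standard error 0.23, edgeR adjusted p = 0.000174). CB1R KO against WT bleomycin gave -0.58 (standard error 0.21, unadjusted p = 0.0142, edgeR adjusted p = 0.178), with a 95% interval from -0.99 to -0.17 on the log2 scale.

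Lrrc15, a leucine-rich repeat membrane protein of activated fibroblasts, went from almost no reads to a low but clear level. Control libraries held 3, 2, 2 and 3 estimated counts, which is at or below a floor of 3 counts. WT bleomycin libraries held 38, 92, 45, 71 and 61 counts, and CB1R KO libraries 19, 22, 99 and 101, the last from the library with the highest total. As CPM, WT bleomycin lungs had 2.41, 5.68, 2.81, 4.91 and 3.76, and CB1R KO bleomycin lungs had 1.24, 1.33, 6.15 and 1.86. CB1R KO replicate 10 was the highest of all 13 libraries, and the other 3 were below every WT bleomycin library. Summed over libraries and divided by their totals, Lrrc15 was 25.3 times as frequent in WT bleomycin as in control (307 against 10 counts, 95% interval 13.6 to 53.2). CB1R KO bleomycin had a ratio of 15.4 to control (241 against 10 counts, 95% interval 8.24 to 32.6). These intervals cover counting error only. The fitted log2 fold changes against control, which depend on the prior count at such low values, were 4.60 for WT bleomycin (standard error 0.62, edgeR adjusted p = 3.29e-05) and 4.02 for CB1R KO bleomycin (standard error 0.65, edgeR adjusted p = 0.000312). Without CB1R KO replicate 10 the latter was 3.24. CB1R KO differed from WT bleomycin by -0.58 (standard error 0.42, edgeR adjusted p = 0.504), and its 95% interval, -1.40 to 0.23 on the log2 scale, spans changes in both directions.

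The RefSeq promoters of 6 of the 10 genes were at hand for GRCm38.p6 (7 sequences, 250 bases before to 50 after the start site), those of Inhba, C1qtnf3, C1qtnf6, Lrrc15, Runx1 and Runx2. No entry was at hand for Cthrc1, Adam12, Fap and Ccdc80, so their promoters were not searched. Motifs were searched on both strands in the 7 sequences and in 32544 distinct promoters of that length. The motifs were the RUNX core TGTGGT, the AP-1 site TGANTCA, the TEAD core GGAATG and the TATA box TATAAA. Also searched were the SMAD element GTCTAGAC and a shorter SMAD motif, CAGAC. A match describes letters in this window and is no evidence of binding. Lrrc15 held 1 AP-1 site, in capitals, 53 bases before the start (chr16:30283205-30283504, minus strand, 5′ to 3′), and 7.79% of all promoters held such a site.
Lrrc15 promoter: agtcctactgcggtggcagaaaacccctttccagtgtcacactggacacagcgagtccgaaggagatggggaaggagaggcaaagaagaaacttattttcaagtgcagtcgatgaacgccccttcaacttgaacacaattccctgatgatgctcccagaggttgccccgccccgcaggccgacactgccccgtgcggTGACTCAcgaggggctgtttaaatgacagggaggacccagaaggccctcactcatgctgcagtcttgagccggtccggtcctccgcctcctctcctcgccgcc

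Adam12, a membrane metalloprotease with a disintegrin domain, had the tightest WT bleomycin values after Runx2 (SD 0.18 on the log2 CPM scale). Control libraries had 5.29, 6.43, 4.67 and 3.99 CPM, WT bleomycin libraries 25.8, 34.8, 32.2, 34.3 and 33.8 CPM, and CB1R KO libraries 10.6, 10.8, 30.4 and 18.1 CPM. CB1R KO replicate 10 fell among the WT bleomycin libraries and the other 3 below them. Adam12 was 6.30-fold higher in WT bleomycin than in control (log2 fold change 2.65, standard error 0.28, edgeR adjusted p = 4.11e-06) and 3.42-fold higher in CB1R KO bleomycin than in control (1.77, standard error 0.29, edgeR adjusted p = 0.000345). The difference between CB1R KO and WT bleomycin was -0.88 on the log2 scale (standard error 0.25, edgeR adjusted p = 0.101, DESeq2 adjusted p = 0.0178).

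Fap, fibroblast activation protein, cleaves peptides after proline at the cell surface and had the second lowest TPM of the genes in WT bleomycin lungs. It had 0.951, 1.14, 1.28 and 0.580 CPM in control, 2.60, 4.14, 2.75, 3.25 and 3.83 CPM in WT bleomycin and 1.57, 2.17, 2.92 and 2.82 CPM in CB1R KO bleomycin libraries. All bleomycin libraries were above all controls, and CB1R KO and WT bleomycin libraries overlapped. The log2 fold change was 1.74 in WT bleomycin (standard error 0.27, edgeR adjusted p = 0.000108) and 1.27 in CB1R KO bleomycin against control (standard error 0.28, edgeR adjusted p = 0.00293). For CB1R KO against WT bleomycin it was -0.47 (standard error 0.24, edgeR adjusted p = 0.346), with a 95% interval from -0.94 to 0.01.

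Related surface proteins did not move as a block. Of 11 membrane ADAM genes other than Adam12, 7 were higher and 2 lower in WT bleomycin than in control lungs, with a median log2 fold change of 0.62. Of all genes tested, 25.0% were higher and 23.9% lower in that comparison. Adam8 (1.18), Adam15 (0.95), Adam9 (0.73) and Adam10 (0.55) were among those that rose. Of 8 prolyl peptidases related to Fap, 4 were higher and 3 lower, Dpp4 among the latter (log2 fold change -0.92). Of 7 leucine-rich repeat relatives of Lrrc15, 3 were higher and 1 lower, and Lrg1, a secreted glycoprotein, rose most clearly (2.35). None of these 3 lists had a gene called by edgeR between CB1R KO and WT bleomycin, where 4, 1 and 0 of their genes had an unadjusted p below 0.05. That unadjusted threshold was met by 2608 of all 15315 genes tested.

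Inhba, the subunit of activin A, rose with bleomycin and was the member with the largest fall in CB1R KO lungs. Its control libraries had 3.09, 7.15, 2.75 and 4.45 CPM and its WT bleomycin libraries 31.7, 36.5, 31.2, 42.7 and 39.9 CPM. In CB1R KO bleomycin lungs it had 12.3, 7.96, 22.6 and 12.3 CPM. Each CB1R KO library, replicate 10 included, lay below every WT bleomycin library and above every control library. Inhba was 8.32-fold higher in WT bleomycin than in control (log2 fold change 3.06, standard error 0.30, edgeR adjusted p = 2.2e-06). CB1R KO bleomycin lungs had 2.65-fold less Inhba than WT bleomycin lungs (log2 fold change -1.41, standard error 0.27, edgeR adjusted p = 0.0281), yet 3.14-fold more than control lungs (1.65, standard error 0.31, edgeR adjusted p = 0.000982). The direction held under all 25 other settings, and the call under 16 of them. Leaving out WT bleomycin replicate 2, 5, 4-B2 or 7, or CB1R KO replicate 8, 9 or 11, ended the call, with log2 fold changes from -1.46 to -1.22 and edgeR adjusted p from 0.0565 to 0.104. With 3 WT bleomycin libraries, those whose labels are in lower case like those of all CB1R KO libraries, the value was -1.27 (edgeR adjusted p = 0.212), and 0.0326% of all genes were called lower. With the label style as a term in the fit it was -1.30 (edgeR adjusted p = 0.0841), at 0.209% of all genes.

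The Inhba promoter held 1 match, a TATA box whose first base lies 91 bases before the annotated start (chr13:16011601-16011900, plus strand, 5′ to 3′, match in capitals). Of all promoters, 13.6% held that motif.
Inhba promoter: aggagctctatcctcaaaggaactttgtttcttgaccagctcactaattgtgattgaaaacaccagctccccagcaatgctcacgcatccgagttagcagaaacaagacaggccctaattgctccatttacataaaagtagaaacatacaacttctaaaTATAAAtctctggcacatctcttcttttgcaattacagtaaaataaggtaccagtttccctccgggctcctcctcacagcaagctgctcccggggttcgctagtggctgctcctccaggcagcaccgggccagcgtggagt

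Among 12 other genes of activin signalling in the tables, follistatin (Fst), which binds activin, changed in the same comparisons as Inhba. Fst had 3.80, 4.81, 6.08 and 6.77 CPM in control, 29.1, 41.1, 41.3, 49.8 and 55.5 CPM in WT bleomycin and 11.1, 9.89, 22.1 and 18.0 CPM in CB1R KO bleomycin libraries. As for Inhba, no CB1R KO library overlapped a WT bleomycin or a control library. Its log2 fold change was 3.02 in WT bleomycin against control (standard error 0.27, edgeR adjusted p = 8.49e-07) and -1.50 in CB1R KO against WT bleomycin (standard error 0.24, edgeR adjusted p = 0.0177). Fst was the 1 gene of these 12 called between CB1R KO and WT bleomycin, where 0.62% of all genes were lower. Without CB1R KO replicate 8, 9 or 11 it was no longer called (edgeR adjusted p from 0.0521 to 0.0684), nor with the libraries of lower-case labels alone (-1.27, edgeR adjusted p = 0.119). Against control, 4 of the 12 were higher and 5 lower in WT bleomycin lungs, while 25.0% of all genes were higher and 23.9% lower. Inhbb, the subunit of activin B, was among the higher (1.89), and the decoy receptor Bambi (-1.15) and the co-receptor Tgfbr3 (-1.17) were among the lower. The median over the 12 was -0.13.

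Runx1 and Runx2 had the smallest fitted changes of the 10 genes against control. Runx1 had 57.9, 60.0, 65.2 and 67.5 CPM in control, 84.4, 104.8, 96.7, 124 and 115 CPM in WT bleomycin and 75.4, 69.4, 96.0 and 68.6 CPM in CB1R KO bleomycin libraries. Every bleomycin library was above every control library, and 3 of the 4 CB1R KO libraries were below every WT bleomycin library. Runx1 was 1.67-fold higher in WT bleomycin than in control (log2 fold change 0.74, standard error 0.12, edgeR adjusted p = 0.000128). In CB1R KO lungs its log2 fold change was -0.44 against WT bleomycin (standard error 0.12, edgeR adjusted p = 0.0796, DESeq2 adjusted p = 0.0154) and 0.30 against control (standard error 0.12, edgeR adjusted p = 0.0689). Without WT bleomycin replicate 4, the edgeR test called Runx1 lower in CB1R KO lungs (-0.51, edgeR adjusted p = 0.0355), where 0.891% of all genes were lower, and higher than in control lungs (0.30, edgeR adjusted p = 0.0467).

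Runx2 had 18.0, 14.7, 14.0 and 15.1 CPM in control, 17.4, 18.3, 16.3, 19.6 and 21.5 CPM in WT bleomycin and 15.2, 14.7, 18.2 and 14.4 CPM in CB1R KO bleomycin libraries. Its groups overlapped in every comparison. The log2 fold change was 0.27 in WT bleomycin against control (standard error 0.11, edgeR adjusted p = 0.0541), -0.26 in CB1R KO against WT bleomycin (standard error 0.11, edgeR adjusted p = 0.243) and 0.01 in CB1R KO bleomycin against control (standard error 0.11, edgeR adjusted p = 0.947). The difference between WT bleomycin and control was called under 7 of 25 other settings, among them the fits without control replicate 3 (0.35, edgeR adjusted p = 0.019), WT bleomycin replicate 5 (0.32, edgeR adjusted p = 0.0319), CB1R KO replicate 10 (0.27, edgeR adjusted p = 0.0386) and CB1R KO replicate 11 (0.27, edgeR adjusted p = 0.0492). Both fits on TPM also called it, and the TPM of Runx2 per unit of CPM ran from 0.289 to 0.508 over the libraries. The cause of that spread was not tested.

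The first Runx1 promoter (chr16:92826025-92826324, minus strand) and the Runx2 promoter (chr17:44814578-44814877, minus strand) are shown because they share a run of 22 bases that holds 2 RUNX cores, the letters these 2 factors themselves bind. The run lies after the start site in both, from base 24 in Runx1 and base 19 in Runx2, and these were the only 2 of the 32544 promoters with it. Runx1 held 2 cores in the window and Runx2 held 3, all in the reverse orientation and in capitals. At least 1 core was in 16.7% of all promoters, and 1.8% had 2 or more. The second Runx1 promoter had none and held 1 TEAD core, as did 4751 of all promoters searched.
Shared run: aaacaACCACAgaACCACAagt
Runx1 promoter: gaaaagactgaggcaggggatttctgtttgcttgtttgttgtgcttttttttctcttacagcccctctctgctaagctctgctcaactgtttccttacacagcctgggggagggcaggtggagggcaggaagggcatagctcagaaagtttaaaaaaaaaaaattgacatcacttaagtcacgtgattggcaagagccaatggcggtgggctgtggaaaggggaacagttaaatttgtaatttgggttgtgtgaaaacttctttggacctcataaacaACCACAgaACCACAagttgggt
Runx2 promoter: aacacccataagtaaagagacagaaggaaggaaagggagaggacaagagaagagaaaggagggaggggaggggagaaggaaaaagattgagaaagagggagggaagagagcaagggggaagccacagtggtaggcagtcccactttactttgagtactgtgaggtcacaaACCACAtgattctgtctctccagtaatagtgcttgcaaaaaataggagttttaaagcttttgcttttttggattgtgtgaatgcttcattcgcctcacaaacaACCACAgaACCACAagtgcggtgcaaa

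Of 13 partners and co-regulators of the RUNX factors, 3 were higher and 6 lower in WT bleomycin than in control, with a median of -0.06. Over all genes tested, 25.0% were higher and 23.9% lower. Cbfb, the shared partner of both factors, rose by a log2 fold change of 0.40 (standard error 0.07, edgeR adjusted p = 0.000237), and Wwtr1, the Hippo pathway co-activator TAZ, by 0.26. The co-repressors Cbfa2t3 (-0.70) and Tle2 (-0.70) fell. Between CB1R KO and WT bleomycin the edgeR test called 0 of the 13, and 1 had an unadjusted p below 0.05, against 2608 of all 15315 genes tested.

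C1qtnf6 was the more abundant of the C1q/TNF-related pair. Its libraries had 11.5, 16.0, 18.1 and 15.7 CPM in control, 45.5, 64.7, 72.4, 64.6 and 69.7 CPM in WT bleomycin and 32.8, 36.2, 69.1 and 56.3 CPM in CB1R KO bleomycin lungs. Bleomycin and control libraries did not overlap, and 2 of the 4 CB1R KO libraries lay inside the WT bleomycin range. The log2 fold change was 2.05 in WT bleomycin against control (standard error 0.22, edgeR adjusted p = 4.24e-06), 1.67 in CB1R KO bleomycin against control (standard error 0.22, edgeR adjusted p = 7.36e-05) and -0.38 in CB1R KO against WT bleomycin (standard error 0.20, edgeR adjusted p = 0.356). Its promoter held 1 AP-1 site, 169 bases before the start.

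C1qtnf3, also known as cartonectin, had 3.15, 3.48, 1.47 and 2.00 CPM in control, 6.14, 14.5, 8.31, 4.64 and 8.70 CPM in WT bleomycin and 6.61, 5.73, 11.7 and 5.41 CPM in CB1R KO bleomycin libraries. WT bleomycin replicates ranged more widely for C1qtnf3 than for any other member (SD 0.61 on the log2 CPM scale), and all 4 CB1R KO libraries fell inside that range. The log2 fold change was 1.74 in WT bleomycin against control (standard error 0.36, edgeR adjusted p = 0.0011) and 1.52 in CB1R KO bleomycin against control (standard error 0.37, edgeR adjusted p = 0.00553). CB1R KO and WT bleomycin differed by -0.21 (standard error 0.32, edgeR adjusted p = 0.778), with a 95% interval from -0.85 to 0.42. The C1qtnf3 promoter had a TATA box, a RUNX core, a TEAD core and 2 matches of the shorter SMAD motif CAGAC. That motif was in 49.5% of all promoters, and the SMAD element GTCTAGAC, found in 0.215%, was in none of the 7.

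Of 11 other C1q/TNF family genes that were tested, 5 were higher and 2 lower in WT bleomycin than in control, against 25.0% and 23.9% of all genes. The complement chains C1qa (2.87), C1qb (2.98) and C1qc (2.68), products mainly of macrophages, rose most, and C1qtnf5 rose by 1.28. The edgeR test called 0 of the 11 between CB1R KO and WT bleomycin, and 6 had an unadjusted p below 0.05, against 2608 of all 15315 genes tested.

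The 4 CB1R KO libraries were unlike each other in these genes. Replicate 10 was the highest CB1R KO library for 10 of the 10, while it was the highest for 25.5% of all genes tested and for 45.3% of the genes that rose in WT bleomycin. Relative to the WT bleomycin mean, the median over the 10 genes was 47.1% in replicate 8, 55.1% in replicate 9, 95.1% in replicate 10 and 64.7% in replicate 11. Replicate 10 ranged from 62.0% for Inhba to 157% for Lrrc15. Replicates 8 and 9 had their lowest values for Lrrc15 (31.7%) and Inhba (21.9%). Among WT bleomycin libraries, replicate 2 was the highest for 6 of the 10 genes, and replicate 4 was the lowest for 6, with a median of 79.3%.

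**Figure D4:**
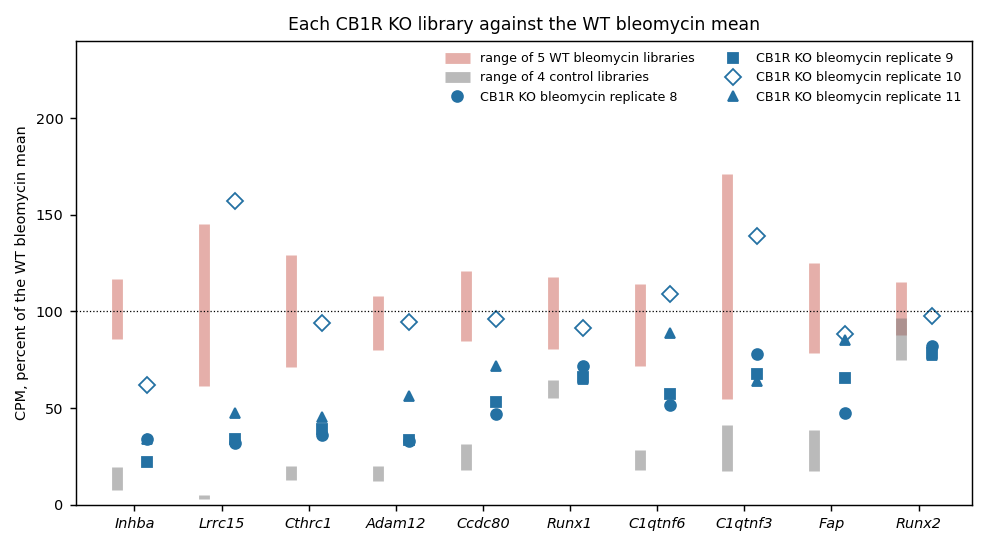
CPM of each CB1R KO library as a percentage of the WT bleomycin mean (vertical axis), for each gene. Red bars span the 5 WT bleomycin libraries, grey bars the 4 control libraries, and the dotted line marks 100%. Replicate 10 (open diamonds) lies inside or above the red bar for every gene but Inhba, where it reaches 62.0%.

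Marker genes of some other cell types moved with this difference between CB1R KO libraries, and those of others did not. The summed TPM of 12 markers of monocyte-derived and interstitial macrophages was 1150 to 1360 in control, 5770 to 6220 in WT bleomycin and 4030 to 6280 in CB1R KO bleomycin libraries, with replicate 10 at the top of the last range. All 12 rose in WT bleomycin against control, as did 25.0% of all genes. Between CB1R KO and WT bleomycin 0 were called by edgeR, and 6 had an unadjusted p below 0.05, against 2608 of all 15315 genes tested. The sum of 10 alveolar fibroblast markers, genes of the resting lung fibroblast, was 4180 to 4880 in control, 1130 to 1570 in WT bleomycin and 1480 to 2710 in CB1R KO bleomycin libraries. Here replicate 10 was the lowest of the CB1R KO libraries. Of these 10 markers, 9 fell with bleomycin, and 3 (Inmt, Slc7a10 and Scube2) were higher in CB1R KO than in WT bleomycin lungs, as were 0.359% of all genes. The sum of 8 general fibroblast markers was 1040 to 1220 in control, 1360 to 1860 in WT bleomycin and 1700 to 1840 in CB1R KO bleomycin lungs. Of these 8, 2 (Col1a2 and Lum) were higher and 1 (Tcf21) lower in WT bleomycin than in control, with a median log2 fold change of 0.13. Over all genes tested, 25.0% were higher and 23.9% lower there. Between CB1R KO and WT bleomycin 1 of these 8, Fbln1, was called, and it was higher (log2 fold change 0.43, standard error 0.07, edgeR adjusted p = 0.0177). It was called under 21 of 25 other settings. Type II and type I cell markers also set replicate 10 apart. The sum of 8 type II cell markers was 37900 to 44000 in control, 25100 to 31900 in WT bleomycin, 33230 in CB1R KO replicate 10 and 43610 to 47630 in the other 3 CB1R KO libraries. The sum of 7 type I cell markers was 5170 to 5540 in control, 3740 to 4150 in WT bleomycin, 3821 in replicate 10 and 4949 to 5357 in the other 3. Replicate 10 also lay outside the other 3 CB1R KO libraries for endothelial (2142, others 2277 to 2412) and adventitial fibroblast markers (1596, others 1310 to 1420). The same held for mast cell and basophil markers (64.4, others 67.1 to 70.0) and chondrocyte markers (3.12, others 2.11 to 2.43). In the remaining lists replicate 10 lay inside the range of the other 3. Transitional alveolar cell markers summed to 851.3 in replicate 10 and 821.3 to 1028 in the other 3. The sums were 215.2 and 201.8 to 247.7 for ciliated cell markers, and 628.2 and 565.1 to 670.9 for contractile cell markers. None of the transitional alveolar, ciliated or contractile cell markers was at 0 in any library. The 9 chondrocyte markers, which would mark the cartilage that also uses Runx2, summed to no more than 3.44 TPM in any library, and 6 of them were at 0 in at least 1 library. The part of these cell types in the results was not tested.

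Without CB1R KO replicate 10, 6 of the 10 genes were lower in CB1R KO than in WT bleomycin lungs, where 2.53% of all genes tested were lower in that fit. The 6 were Inhba (log2 fold change -1.73, edgeR adjusted p = 0.00277), Lrrc15 (-1.36, edgeR adjusted p = 0.0233), Cthrc1 (-1.31, edgeR adjusted p = 0.00359), Adam12 (-1.26, edgeR adjusted p = 0.00354), Ccdc80 (-0.80, edgeR adjusted p = 0.0369) and Runx1 (-0.56, edgeR adjusted p = 0.0133). The median of the 10 moved from -0.52 to -0.69. Replicate 10 was the highest CB1R KO library for all 10 genes, so leaving it out had to lower their CB1R KO means. The adjusted p-values of this fit describe that choice and are no separate test. DESeq2 on all 13 libraries called 4 of the 10, which were Inhba, Cthrc1, Adam12 and Runx1, at a background of 2.37% of all genes. The same 4 were called by DESeq2 on the libraries of these 2 groups, at 2.41%. Leaving out WT bleomycin replicate 2, 5, 4-B2 or 7, or CB1R KO replicate 8, 9 or 11, left 0 of the 10 called by edgeR.

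**Figure D5:**
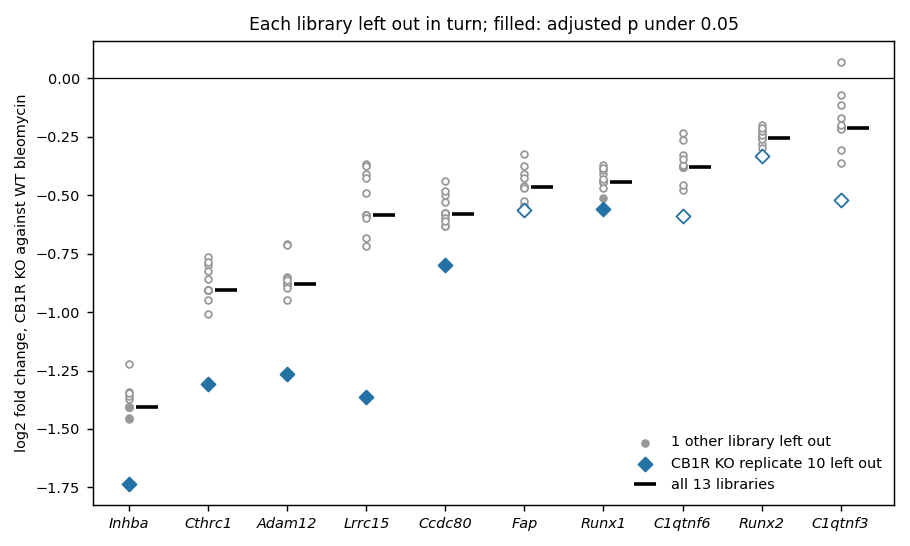
Log2 fold change of each gene in CB1R KO against WT bleomycin (vertical axis) with all 13 libraries (black bar) and with each library left out in turn (points). Filled points have an adjusted p below 0.05, and diamonds mark the fit without CB1R KO replicate 10. The diamonds are the lowest points for 9 of the 10 genes (for Fap the point without CB1R KO replicate 11 is lower), and 6 of them are filled.

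Of 20 further genes of activated fibroblasts, 19 rose in WT bleomycin lungs relative to control, as did 25.0% of all genes. Their median log2 fold change was 2.73. The matrix genes Tnc (4.43), Fn1 (2.95), Col5a2 (2.88) and Col3a1 (2.80) had the lowest p-values. Between CB1R KO and WT bleomycin 3 of the 20 were lower, as were 0.62% of all genes. Timp1, an inhibitor of matrix metalloproteinases, fell from a mean of 125 to 45.3 CPM (log2 fold change -1.46, standard error 0.29, edgeR adjusted p = 0.0314). Fibronectin (Fn1) changed by -0.86 (edgeR adjusted p = 0.0389) and Col12a1, a fibril-associated collagen, by -0.51 (edgeR adjusted p = 0.0391). Under the 25 other settings Timp1 was called in 16, and Fn1 and Col12a1 in 13 each. Timp1 was no longer called without WT bleomycin replicate 2, 5, 4-B2 or 7 or CB1R KO replicate 8, 9 or 11 (edgeR adjusted p from 0.0576 to 0.121), and Fn1 and Col12a1 without any of these or control replicate 21 or 24 (edgeR adjusted p from 0.05 to 0.144). None of the 3 was called with the label style as a term or with the libraries of lower-case labels alone, and Fn1 and Col12a1 were not called by edgeR on the 2 groups. The median of the 20 was -0.51 in that comparison. In CB1R KO bleomycin lungs 18 of the 20 were higher than in control, as were 19.0% of all genes, with a median of 2.03 over the 20.

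The genes outside the 10 whose log2 CPM ran most like that of Cthrc1 over the 13 libraries were Olfml2b (Pearson r = 0.989), Lgals1 (0.984), Serpine2 (0.983), Fn1 (0.983) and Thbs2 (0.982). Those most like Lrrc15 were Thbs2 (0.987), Surf4 (0.982), Prox1 (0.982), Calu (0.981) and Myo7a (0.981). Adam12 was most like Tnfrsf4 (0.993), Tnfsf18 (0.989), Cald1 (0.989), Surf4 (0.988) and Tubb5 (0.986). Within the 10, Ccdc80 was the gene most like Cthrc1 (0.984) and Runx2 the least (0.608). Thbs2, thrombospondin 2, had 66.5 CPM in CB1R KO replicate 10, above all WT bleomycin libraries (39.8 to 58.0 CPM), as Lrrc15 did. These correlations describe 13 libraries in 3 groups that differ in mean, and genes that rose with bleomycin share that difference.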

How the data were processed

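The authors sequenced poly(A) RNA from lung lobes of 13 mice, quantified it with Kallisto on the Ensembl 105 mouse reference, and summed protein-coding transcripts per gene. What was deposited is a table of estimated counts and a table of TPM, each for 20270 genes. Counts are not normalized, 64.8% of them are not whole, and the single-sample files held the same values as the series tables. 1 TPM column that matched no sample was not used.

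Estimated counts were rounded, filtered with filterByExpr and scaled by TMM. The 13 libraries were fitted in 3 groups with edgeR 4.0.16 (R 4.3.3, quasi-likelihood test, two-sided), with Benjamini-Hochberg adjustment over 15315 genes. The standard error is the absolute log2 fold change divided by the square root of F, and 95% intervals are 1.96 standard errors to each side. CPM are TMM-scaled, and log2 CPM used a prior count of 2. Depth was 14615904 to 16662580 counts in 12 libraries and 53463884 in CB1R KO replicate 11. The median standard error over genes was 0.11 to 0.12 on the log2 scale. The labels name no batch. WT bleomycin libraries 4 and 4-B2 share a number, and what the suffix B2 means is not given. Label style means that control 26 and WT bleomycin 4-B2 and 7 have labels in mixed case, and all others in lower case.

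Genes named outside the 10 were those past the threshold in a list, at most 4 per list by lowest p, and the 5 genes closest to Cthrc1, Lrrc15 and Adam12 by Pearson r. The members and lists were chosen with earlier results of these data known. Library values of Thbs2 were chosen after they were seen. Alternatives were other count filters, RLE and upper-quartile scaling, DESeq2 1.42.0, limma 3.58.1 on log2 TPM with a pseudocount of 1 or 0.1, 2-group fits, the label style, a thinned CB1R KO replicate 11, and each library left out. The procedure was tested on simulated data. Promoters came from RefSeq (GRCm38.p6), a build other than the authors' GRCm39.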

Additional observations from a re-analysis of the deposited data

Results flagged for a closer look

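Of 30 gene and group combinations tested for a library far from the others of its group, 2 were marked, and chance marks about 1 in 20. Both were in WT bleomycin replicate 4. C1qtnf6 had a log2 CPM of 5.51 there, while the other 4 WT bleomycin libraries ran from 6.02 to 6.18. Adam12 had a log2 CPM of 4.70 there, while the others ran from 5.02 to 5.13.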

How the results depend on the processing

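Of 744 values of the 10 genes under other settings, 705 kept their direction and their side of the threshold, 24 moved past it, 9 fell short of it and 6 changed sign. Between CB1R KO and WT bleomycin, where 1 gene was called, DESeq2 called 4 on all libraries and 4 on 2 groups, and the label style as a term and the libraries with lower-case labels alone each gave 0. Leaving out 1 library at a time gave 0 to 6 (6 without CB1R KO replicate 10, 2 without WT bleomycin replicate 4). Counts over all genes in that comparison were 150 with edgeR, 640 and 644 with DESeq2, 653 without CB1R KO replicate 10 and 1 without CB1R KO replicate 9. The 17 genes of other lists named in that comparison were called under 10 to 22 of 25 settings. The cause of these differences was not tested. Members higher in WT bleomycin than in control numbered 7 to 10, and in CB1R KO bleomycin than in control 6 to 9. The lowest of these came from a minimum of 10 counts in every library, which left Lrrc15 and Fap untested. With 1 library left out, C1qtnf3 in CB1R KO against WT bleomycin ran from -0.522 to 0.071 (without WT bleomycin replicate 2), and Runx2 in CB1R KO bleomycin against control from -0.062 to 0.097. Runx2 in CB1R KO bleomycin against control turned to -0.007 with upper-quartile scaling, -0.011, -0.034 and -0.002 without control replicates 21, 24 and 26, and -0.062 without CB1R KO replicate 10. Ordered by CPM, 5 genes in control, 2 in WT bleomycin and 3 in CB1R KO bleomycin kept their rank by TPM. On log2 TPM, the correlation with Lrrc15 was 0.93 for Surf4, 0.912 for Calu and 0.923 for Myo7a. In log2 TPM with a pseudocount of 1, changes against control of low genes were smaller, for Lrrc15 0.99 in WT bleomycin and 0.69 in CB1R KO bleomycin, and for Adam12 1.85 and 1.09. No paired analysis was possible because the groups share no replicate numbers. Control libraries with 2 or 3 counts limit what can be said of Lrrc15.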

Other observations

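Other cell type markers in the same libraries moved as follows. In WT bleomycin against control, 6 of 7 transitional alveolar cell markers and 6 of 9 adventitial fibroblast markers were higher, while 8 of 8 endothelial, 7 of 7 cardiac muscle, 6 of 8 type II cell, 5 of 6 neutrophil and 5 of 9 T and NK cell markers were lower. Of all genes tested, 25.0% were higher and 23.9% lower in that comparison. Between CB1R KO and WT bleomycin, Tagln and Actg2 of 8 contractile cell markers and Cldn4 of 7 transitional alveolar cell markers were lower. Higher were 3 of 8 type II cell markers (Sftpc, Sftpa1 and Lamp3), 2 of 9 T and NK cell markers (Gzma and Nkg7) and Tek of 8 endothelial markers. Over all genes, 0.62% were lower and 0.359% higher in CB1R KO than in WT bleomycin lungs. The 6 adipocyte markers that were tested had a median log2 fold change of 1.46 in that comparison, and edgeR called 0 of them. An unadjusted p below 0.05 was reached by 4 of them, against 2608 of all 15315 genes tested.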
